A study of Mus musculus with 6 samples.

Results

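Ubiquitin-conjugating enzymes (the Ube2 genes) and ubiquitin-specific proteases (the Usp genes) were measured in the testes of mice given JQ1, an inhibitor of the bromodomains of the BET proteins, whose testis-restricted member BRDT works in meiotic and postmeiotic germ cells. The genes were taken by name. All symbols of the array that start with Ube2, or with Usp and a digit, were included, which gave 87 genes of 19057 with a symbol, 34 Ube2 and 53 Usp. Whole testis RNA came from male C57/129 mice that received daily injections of JQ1 (50 mg/kg) or of vehicle for 6 weeks, from 6 to 12 weeks of age. The 2 control mice and the 3 JQ1-treated mice shared strain, age, housing and the schedule of injections. Control mouse 1 was read on 2 arrays, which were averaged, giving 5 mice on 6 arrays.

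Ubiquitin reaches its target in 3 steps. An activating enzyme (E1) loads it onto a conjugating enzyme (E2), and the E2 works with a ligase (E3) that picks the target. Deubiquitinases cut it off again, and the Usp proteins are the most numerous family among them. The E2 sets much of the kind of chain that is built, some of which send a protein to the proteasome while others serve in signalling and DNA repair. Spermatogenesis draws on this system at several points. Histones are ubiquitinated before they are exchanged for protamines, the sex chromosomes of pachytene spermatocytes carry ubiquitinated histone H2A, and much of the cytoplasm of the spermatid is dismantled. In the mouse, loss of Ube2b leaves males infertile.

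A probe was taken as detected where its detection p, its rank against the negative control beads of the array, was under 0.05, and it was kept where this held in at least 2 of the 5 mice. For control mouse 1 the detection p-values of its 2 arrays were averaged. A probe detected on 1 of them can thus count as not detected. By these rules 69 of the 87 members were measured, 27 Ube2 genes on 43 probes and 42 Usp genes on 76 probes. Of the measured members, 59 were detected in all 5 mice. The 18 others were Ube2c, Ube2d-ps, Ube2d1, Ube2ql1, Ube2r2, Ube2v2 and Ube2w among the Ube2 genes, and Usp13, Usp27x, Usp29, Usp31, Usp34, Usp35, Usp48 and the 4 Usp17-like genes among the Usp genes. Each of the 18 was detected in 0 mice, except Ube2d1 and Ube2r2, which were detected in 1 each. A member is represented by its brightest kept probe, and its level is given as normalised signal on a log2 scale, on which levels of different probes cannot be compared.

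Across all 11601 measured genes, 25.3% were higher and 21.8% lower in JQ1-treated testes at an adjusted p under 0.05 (limma, Benjamini-Hochberg over all 20554 kept probes), and this is what passing the test means below. Markers of other cells moved with treatment over the whole testis. All 7 measured Sertoli cell markers rose (median log2 fold change 1.32), and their summed linear signal lay at 9011 to 9770 in control and 22690 to 26923 in JQ1-treated mice. All 5 Leydig cell markers rose too, with sums of 9131 to 10718 against 19182 to 26641. Peritubular and stromal markers rose in 4 of 6 cases, macrophage markers in 3 of 4 and spermatogonial markers in 4 of 6, with sums of 4312 to 4935, 486 to 514 and 1149 to 1219 in control mice against 9226 to 11858, 719 to 1054 and 1796 to 2116. None of the 4 endothelial markers passed. Of 7 pachytene spermatocyte markers 3 fell, and their sum went from 80557 to 88692 down to 69525 to 74564. The 9 spermatid markers did not pass, with sums of 90463 to 91871 in control and 85071 to 92713 in JQ1-treated mice. Such sums weigh the brightest probes most, and whether the signal of those is capped was not tested. The pachytene marker Ldhc read 14.97 in all 3 JQ1-treated mice. Some defining markers were not measured, among them Amh and Gata4 (Sertoli cells), Hsd3b1 (Leydig cells), Cd163 (macrophages), Gfra1 (spermatogonia) and Sycp3 (spermatocytes). In whole testis RNA, fewer cells of a type and less RNA per cell cannot be told apart, and the part of these shifts in any member's change was not tested.

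Most of the measured conjugating enzymes did not pass the test. Of the 27 measured Ube2 genes, 5 rose (Ube2e3, Ube2e2, Ube2d2a, Ube2h and Ube2l3; 18.5%), 3 fell (Ube2u, Ube2g2 and Ube2q2; 11.1%) and 19 did not pass. Both shares lie under those of all genes (25.3% and 21.8%), and this difference was not tested. The median log2 fold change was 0.02, between -0.76 and 0.77, beside 0.00 over all genes (quartiles -0.36 and 0.45). With cyclic loess in place of quantile normalisation, 5 rose and 1 fell. Over all 11601 genes, 3275 then rose and 1939 fell, against 2938 and 2526 with quantile normalisation. Without JQ1-treated mouse 2, 5 Ube2 genes rose and 1 fell, beside 2515 and 1995 of all genes. Without control mouse 1, which leaves 1 control, the Ube2 median was 0.055, beside -0.01 over all genes. In 15 of the 27 genes the values of control and JQ1-treated mice did not overlap (9 higher, 6 lower, 55.6%), against 34.4% higher and 32.1% lower, 66.4% in all, over all genes.

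**Figure D1:**
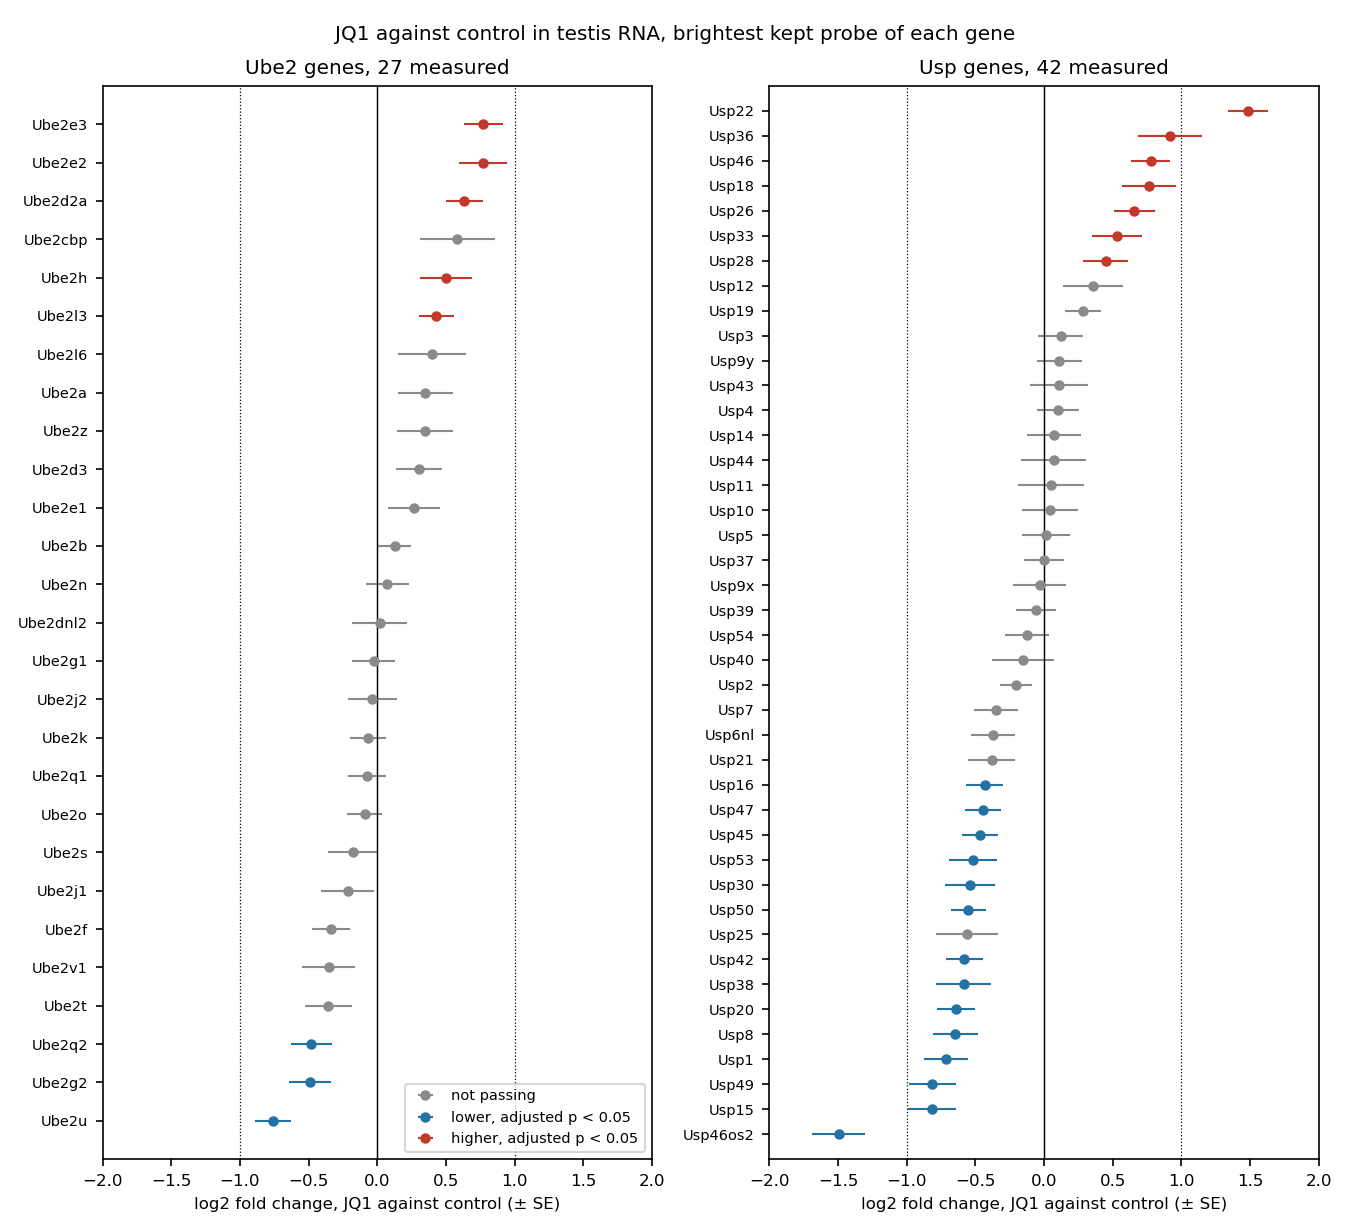
Log2 fold change of JQ1-treated against control testes for the brightest kept probe of each of the 27 Ube2 and 42 Usp genes, with standard errors. Coloured points passed the adjusted p, and the dotted lines mark a change of 2-fold. Only Usp22 and Usp46os2 lie beyond those lines, at 1.49 and -1.50, while no Ube2 gene does.

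Members of the Ube2e family, close relatives of the Ube2d enzymes, stood at the top of the Ube2 genes. Ube2e3 had a log2 signal of 8.36 and 8.46 in the control mice and of 9.16, 9.31 and 9.09 in the JQ1-treated mice. All 3 treated mice lay above both controls, and the gene was 1.71-fold higher (log2 fold change 0.77 ± 0.14, SE, n = 2 and 3 mice; limma adjusted p = 3.32e-04). A dimmer second probe of Ube2e3, detected in 0 control mice and all 3 treated mice, gave 0.53 (adjusted p = 0.0663). For Ube2e2 the values were 8.73 and 9.31 in control and 9.56, 9.79 and 10.01 in treated mice. The groups did not overlap, although the controls lay far apart, and the fold was 1.71 (log2 fold change 0.77 ± 0.17; adjusted p = 0.00162). Without control mouse 1 this became 0.48 (adjusted p = 0.0764). Ube2e1, whose gene neighbours Ube2e2 on chromosome 14, did not pass (0.27, adjusted p = 0.266) and its groups overlapped.

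The other Ube2 genes that rose serve a wide range of ligases. Ube2d2a, a general-purpose E2 of the Ube2d family, had values of 9.04 and 9.07 in control and 9.73, 9.62 and 9.72 in JQ1-treated mice. Both groups were tight and apart, and it was 1.55-fold higher (log2 fold change 0.64 ± 0.13; adjusted p = 9.77e-04). Ube2d genes are alike in sequence, and whether the probes tell them apart was not tested. The brightest probe of Ube2d3 gave 0.31 (adjusted p = 0.144), its dimmer probe, detected in 1 of 2 control mice, gave 0.68 (adjusted p = 0.0301), and the testis-expressed relative Ube2dnl2 gave 0.02. Ube2l3, which works with HECT and RBR ligases, had values of 9.89 and 9.99 in control and 10.36, 10.38 and 10.38 in treated mice. Again the groups were apart. Both of its probes passed, at 0.43 and 0.47 (adjusted p = 0.0106 and 0.00897), but the brighter did not without control mouse 1 (0.38, adjusted p = 0.104). Ube2h, the E2 of the CTLH ligase complex, had values of 6.02 and 5.95 in control and 6.68, 6.28 and 6.50 in treated mice. All treated mice were above the controls (log2 fold change 0.50 ± 0.19; adjusted p = 0.0366), yet the call was lost without control mouse 1 (adjusted p = 0.0919), control mouse 2 (0.13) and JQ1-treated mice 1 and 3 (0.107 and 0.0776).

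Ube2u showed the largest fall among the conjugating enzymes. Its signal was 10.29 and 10.20 in the control mice and 9.51, 9.47 and 9.48 in the JQ1-treated mice. The 3 treated mice differed by less than the 2 controls did, and all lay below them. Its brightest probe was 1.69-fold lower (log2 fold change -0.76 ± 0.13; adjusted p = 1.68e-04), and its second probe, at 9.15 and 8.99 against 8.35, 8.13 and 7.70, was lower by more than 2-fold (-1.01 ± 0.18; adjusted p = 1.94e-04). This was the only Ube2 probe past 2-fold. Over all kept probes, 3.16% were lower by at least 2-fold and passed. Ube2g2, which marks proteins sent back from the endoplasmic reticulum for degradation, had values of 9.09 and 9.21 in control and 8.91, 8.53 and 8.54 in treated mice. Treated mouse 1 stood close to the controls but did not overlap them (-0.49 ± 0.16; adjusted p = 0.0158). The fall of Ube2q2 was of like size, from 9.16 and 9.13 to 8.86, 8.51 and 8.63 (-0.48 ± 0.15; adjusted p = 0.0145). Here too all treated mice were below the controls. Ube2g2 no longer passed without control mouse 1, control mouse 2, JQ1-treated mouse 2 or JQ1-treated mouse 3 (adjusted p = 0.0522, 0.112, 0.0696 and 0.0532), nor did Ube2q2 without control mouse 1, control mouse 2 or JQ1-treated mouse 2 (0.0906, 0.0614 and 0.0729).

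The sequence upstream of the transcript start is shown for Ube2u, as the E2 with the largest fall, and for Ube2h. Of the passing Ube2 genes with a matched sequence, only Ube2h held a searched motif. RefSeq sequences of 250 bases (GRCm38.p6) were matched by symbol for 53 of the 69 measured members. Ube2e3, Ube2d2a, Ube2g2 and Usp22 were not among them. Another promoter of Ube2h held none of the motifs and is not shown. The motifs were TGACGTCA (the cAMP response element, CRE), CACGTG (the E-box of MYC and USF factors), CCGGAAGT (ETS factors), CCAATCA (NF-Y) and the palindromic NRF1 motif, each read on both strands. Capitals mark a match. The sequence of Ube2u lies at chr4:100478617-100478866 on the plus strand and that of Ube2h at chr6:30304540-30304789 on the minus strand, both printed 5′ to 3′ in the direction of the gene.
Ube2u: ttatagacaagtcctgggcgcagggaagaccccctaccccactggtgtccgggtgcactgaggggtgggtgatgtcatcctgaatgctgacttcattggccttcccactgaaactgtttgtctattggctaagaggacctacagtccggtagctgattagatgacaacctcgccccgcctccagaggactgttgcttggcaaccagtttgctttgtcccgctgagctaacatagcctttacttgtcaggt
Ube2h: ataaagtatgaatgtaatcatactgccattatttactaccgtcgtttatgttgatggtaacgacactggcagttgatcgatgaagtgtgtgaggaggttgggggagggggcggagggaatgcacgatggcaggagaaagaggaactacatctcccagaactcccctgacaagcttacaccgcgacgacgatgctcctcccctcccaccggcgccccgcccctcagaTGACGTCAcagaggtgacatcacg
Ube2u held none of the 5 motifs. The CRE of Ube2h was the only CRE among the 37 Ube2 promoters (2.7%), and 1.55% of all 32851 promoters of this length held that motif.

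Conjugating enzymes with known roles in the germ line were among those that did not pass. Ube2a and Ube2b are the mammalian counterparts of yeast RAD6, which ubiquitinates histone H2B and, with Rad18, PCNA. Ube2b, among the brighter Ube2 probes, had values of 11.01 and 10.92 in control and 11.05, 11.07 and 11.15 in treated mice. The treated mice lay just above the controls, a difference that did not pass (0.13 ± 0.12; adjusted p = 0.415). X-linked Ube2a counted as detected in 0 control mice, with the arrays of control mouse 1 averaged, and in all 3 treated mice. Its fitted change of 0.35 did not pass (adjusted p = 0.161). Ube2k, the brightest Ube2 probe, had values of 12.03 and 11.75 in control and 11.89, 11.63 and 11.95 in treated mice, which overlapped (-0.07 ± 0.13; adjusted p = 0.71). Ube2j1, an enzyme of endoplasmic reticulum quality control, gave -0.21 (adjusted p = 0.381) with overlapping groups. Ube2n, which builds the chains of DNA repair and signalling, gave 0.07 (adjusted p = 0.732) and its cofactor Ube2v1 -0.35 (adjusted p = 0.142). The value of Ube2v1 changed with the control left out, at -0.63 (adjusted p = 0.03) without control mouse 2 and -0.07 without control mouse 1. Ube2s, which extends chains for the anaphase-promoting complex, gave -0.18 (adjusted p = 0.439). The 19 Ube2 genes that did not pass lay between -0.36 (Ube2t) and 0.58 (Ube2cbp, which carries the name without being a conjugating enzyme). The NEDD8 enzyme Ube2f had 4 kept probes between -0.58 and -0.34, of which the 3 dimmer ones passed (adjusted p = 0.00343, 0.00589 and 0.0202) and the brightest did not (0.0542).

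Among the ubiquitin-specific proteases, more members fell than rose. Of 42 measured Usp genes, 14 fell (33.3%), 7 rose (16.7%) and 21 did not pass, beside 21.8% lower and 25.3% higher over all genes. Those that rose were Usp22, Usp36, Usp46, Usp18, Usp26, Usp33 and Usp28. Usp46os2, Usp15, Usp49, Usp1, Usp8, Usp20, Usp38, Usp42, Usp50, Usp30, Usp53, Usp45, Usp47 and Usp16 fell. The median log2 fold change of the class was -0.09 between -1.50 and 1.49, and 0.01 with cyclic loess normalisation, under which the median of all genes was 0.08. Without control mouse 1, which leaves 1 control, the median of the class was -0.075, beside -0.01 over all genes. Fewer Usp genes then passed as lower, and fewer of all genes did too. Values of the groups did not overlap for 26 of 42 genes, 18 lower and 8 higher (61.9%), a share under the 66.4% of all genes (32.1% lower and 34.4% higher). Set against the control mean, the median Usp gene lay at -0.12, -0.20 and -0.21 in JQ1-treated mice 1, 2 and 3, and the median Ube2 gene at 0.05, 0.10 and 0.06. Whether the 2 classes differ in their shares was not tested. Usp46os2 and Usp6nl carry the name without being proteases of the family, and without them 13 of 40 fell and 7 rose (median -0.05).

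Usp22 rose most of all members. It is the deubiquitinase of the SAGA coactivator complex and takes ubiquitin off histones H2B and H2A. Its signal was 7.71 and 7.58 in the control mice and 9.04, 9.10 and 9.25 in the JQ1-treated mice. Treated and control mice were clearly apart, and the change was 2.80-fold (log2 fold change 1.49 ± 0.15; adjusted p = 8.45e-07). A second, dimmer probe gave 6.96 and 6.70 against 8.19, 8.25 and 8.50, with the same change to 2 decimals (1.49 ± 0.17; adjusted p = 2.69e-06). It was the only measured member higher by at least 2-fold, a call that 8.53% of all genes met, and it stayed past 2-fold without any 1 of the 5 mice (1.42 to 1.55). Of its SAGA partners, Atxn7l3 and Atxn7 gave -0.18 and -0.32 and did not pass (adjusted p = 0.449 and 0.205).

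**Figure D2:**
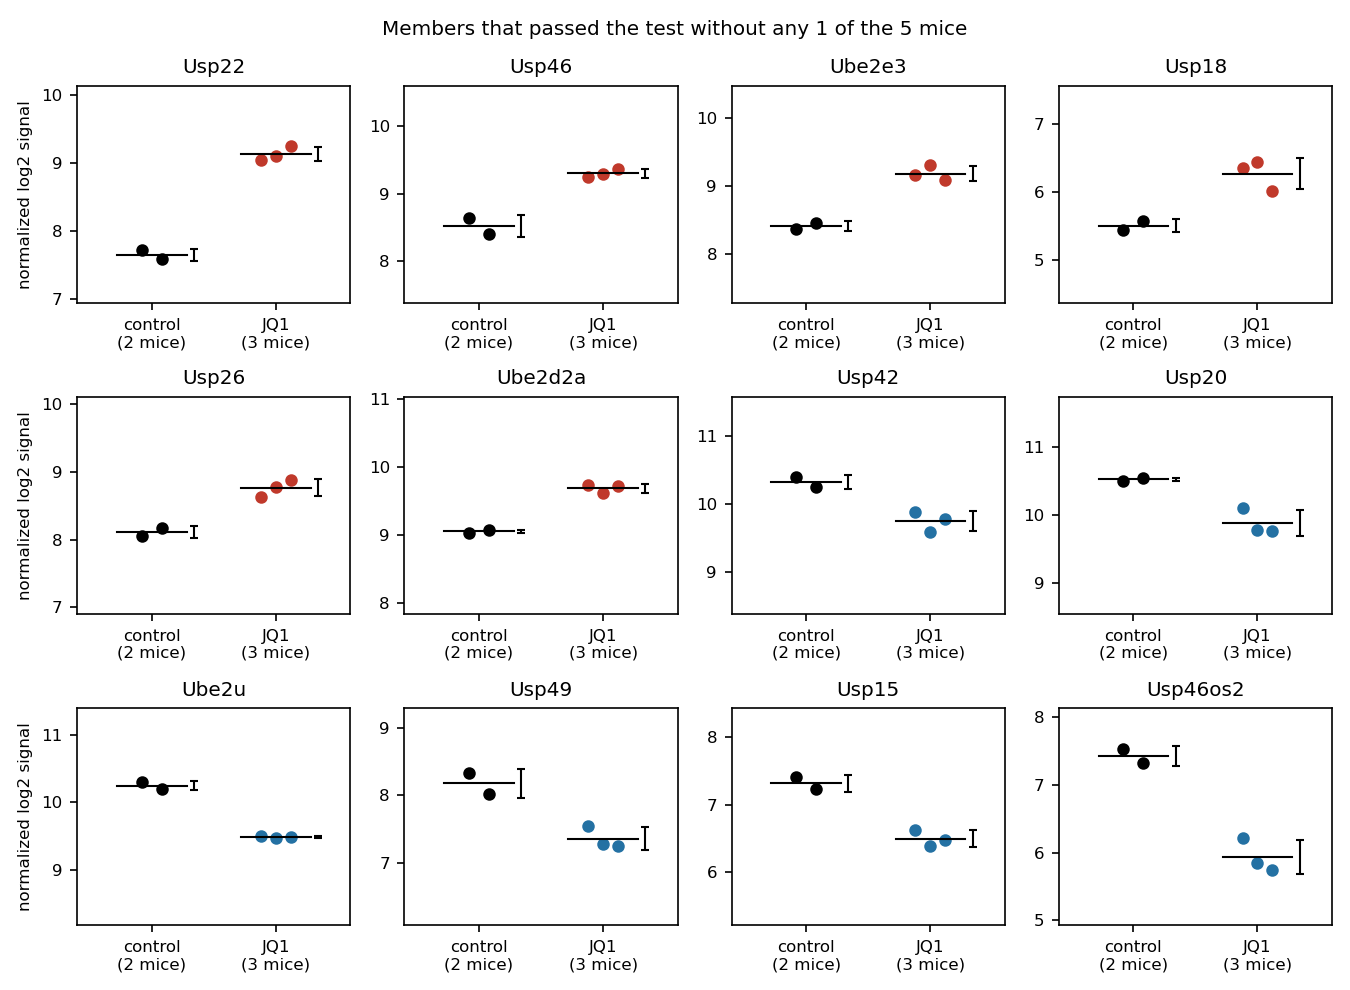
Normalised log2 signal in each mouse for the 12 members that passed the test without any 1 of the 5 mice, with group means (lines) and SDs (bars). The members were chosen by that test, so treated mice lying apart from both controls in every panel is no separate result. Treated values ran from 9.04 to 9.25 against 7.58 and 7.71 for Usp22 and from 5.75 to 6.21 against 7.33 and 7.54 for Usp46os2.

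Of 8 measured Usp enzymes grouped here as histone deubiquitinases, 2 rose (Usp22 and Usp36), 3 fell (Usp49, Usp42 and Usp16) and 3 did not pass, beside 25.3% higher and 21.8% lower of all genes. Each gene was placed in 1 group only, so the count does not cover every Usp enzyme that may act on histones. Usp36, which resides in the nucleolus, had values of 5.71 and 4.85 in control and 6.17, 6.39 and 6.03 in treated mice. Only 1 of the 2 controls was above background (0.92 ± 0.23; adjusted p = 0.00386), and without control mouse 2 the change was 0.49 (adjusted p = 0.116). Its second probe, detected in 0 control mice and so kept through the treated mice alone, is no further support for the rise. With control values raised to the lowest signal detected on each control array, its fold was 1.28, which adds no support either. Usp49, a protease of ubiquitinated H2B, had values of 8.33 and 8.02 in control and 7.56, 7.29 and 7.25 in treated mice. The groups were apart and the level 1.76-fold lower (-0.81 ± 0.17; adjusted p = 8.65e-04). Usp42, which is strongly expressed in the testis, went from 10.40 and 10.26 to 9.88, 9.59 and 9.78 (-0.58 ± 0.14; adjusted p = 0.00236). For Usp16, the protease of ubiquitinated H2A, values of 10.73 and 10.85 stood against 10.52, 10.26 and 10.29. Its groups did not overlap in either probe, at -0.43 and -0.88 (adjusted p = 0.0129 and 0.00156), and the brighter lost the call without control mouse 2 (0.112) and without JQ1-treated mouse 2 (0.0566).

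Usp1, Usp12 and Usp46 share an activating partner, Wdr48 (UAF1), and did not move as a group. Usp1, which takes ubiquitin off FANCD2 and PCNA in DNA repair, had values of 10.77 and 10.32 in control and 10.08, 9.58 and 9.84 in treated mice. All 3 of its probes fell, by 0.71 (adjusted p = 0.00171), 0.94 (adjusted p = 6.93e-05) and 1.01 (adjusted p = 1.73e-05) on the log2 scale, the brightest by least. The latter did not pass without control mouse 1 (-0.49, adjusted p = 0.0701). Usp46, by contrast, had values of 8.64 and 8.41 in control and 9.25, 9.28 and 9.37 in treated mice. This probe, for which the array annotation names no transcript, was 1.71-fold higher with the groups apart (0.78 ± 0.14; adjusted p = 3.05e-04). The second probe of Usp46, nearly as bright and annotated to a RefSeq transcript, pointed the other way without passing. It went from 8.24 and 8.18 to 7.80, 8.02 and 7.68, also with the groups apart (-0.38 ± 0.16; adjusted p = 0.0643). As the median of both probes, Usp46 gave 0.20 and did not pass (adjusted p = 0.238). Usp12 gave 0.36 (adjusted p = 0.201) at its brightest probe, detected in 1 of 2 control mice. Its other probe, detected in both controls, gave -0.185 (adjusted p = 0.47). Wdr48 itself gave 0.44 (adjusted p = 0.38) with the 2 controls far apart. Of the other partners of these enzymes, Wdr20 fell (-0.48, adjusted p = 0.0156) and Dmwd rose (0.75, adjusted p = 1.44e-04).

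Usp46os2 was the member that fell most. It is named as a transcript opposite to Usp46 and is not an enzyme. Values were 7.54 and 7.33 in control and 6.21, 5.84 and 5.75 in treated mice. The level was 2.82-fold lower, the groups lying more than 1 log2 unit apart (-1.50 ± 0.19; adjusted p = 1.01e-05), a call that 2.87% of all genes met, and it held past 2-fold without any 1 of the 5 mice (-1.63 to -1.39). RefSeq (GRCm38.p6) lists a gene of this symbol on the plus strand of chromosome 5, opposite to Usp46, but under another gene ID than that of the array, and no position is given here.

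Other Usp genes fell as well. Usp15, which acts on receptors and SMADs of the TGF-beta pathway, had values of 7.40 and 7.23 in control and 6.63, 6.39 and 6.47 in treated mice. Its brighter probe was 1.76-fold lower (-0.82 ± 0.17; adjusted p = 0.00105), while its dimmer probe gave 0.00 (adjusted p = 0.997), and the median of both gave -0.41 (adjusted p = 0.0482). Its paralogs Usp4 and Usp11 gave 0.10 and 0.05 at their brightest probes. Usp8, an endosomal protease found at the forming acrosome, had values of 9.17 and 8.71 in control and 8.40, 8.32 and 8.16 in treated mice. Both of its probes fell by a like amount, -0.65 and -0.64 (adjusted p = 0.00378 and 0.0042), and without control mouse 1 the brighter gave -0.42 (adjusted p = 0.125). Usp50 neighbours Usp8 on chromosome 2 and went from 11.49 and 11.30 to 10.73, 10.88 and 10.93, with both probes lower (-0.55 and -0.98; adjusted p = 0.00198 and 1.17e-04). Its brighter probe narrowly missed the threshold without control mouse 1 (adjusted p = 0.0517). Usp30, anchored in the outer mitochondrial membrane, fell by 0.54 (adjusted p = 0.0228). Usp45, Usp53 and Usp38 fell by 0.47 (adjusted p = 0.00802), 0.52 (0.0223) and 0.59 (0.0226). The dimmer probes of Usp53 and Usp38 did not fall, at 0.18 (adjusted p = 0.493) and 0.05 (0.854), that of Usp53 being detected in 0 control mice. The calls of Usp30, Usp45, Usp53 and Usp38 each depended on single mice. Usp45 lost its call without control mouse 2 (adjusted p = 0.0789), and Usp30 without control mouse 1, control mouse 2 or JQ1-treated mouse 2 (0.1, 0.0672 and 0.0811). Usp38 lost it without control mouse 1, JQ1-treated mouse 2 or JQ1-treated mouse 3 (0.152, 0.0717 and 0.0898), and Usp53 without any 1 of the mice except JQ1-treated mouse 3 (0.0609 to 0.0894).

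Paralogs within the family could differ in direction. Usp20 and Usp33 are close relatives that act on hypoxia and adrenergic receptor signalling. Usp20 had values of 10.51 and 10.55 in control and 10.11, 9.78 and 9.77 in treated mice, and fell (-0.64 ± 0.14; adjusted p = 0.00127). Usp33 had values of 7.42 and 7.68 in control and 7.93, 7.90 and 8.43 in treated mice, and rose (0.53 ± 0.18; adjusted p = 0.0237), although not without control mouse 1 (adjusted p = 0.196) or JQ1-treated mouse 3 (0.118). Neither gene had overlapping groups. Usp28, which stabilises MYC, rose by 0.45 (adjusted p = 0.033) but did not pass without control mouse 1 (0.299), JQ1-treated mouse 2 (0.0974) or JQ1-treated mouse 3 (0.0914), and its paralog Usp25 gave -0.56 (adjusted p = 0.0514). Usp47 fell (-0.44, adjusted p = 0.0101). Its paralog Usp7, the protease of p53 and MDM2, gave -0.35 at its brightest probe (adjusted p = 0.0833) with overlapping groups. This probe came to pass without JQ1-treated mouse 1 (-0.45, adjusted p = 0.0317). It gave -0.60 without control mouse 2 and -0.09 without control mouse 1. The dimmer probes of Usp7 gave -0.19 (adjusted p = 0.329) and 0.32 (0.134). In the latter all treated mice lay above both controls. Only 2 of the 6 kept probes of Usp47 passed, and its brightest did not without control mouse 1 (0.104) or JQ1-treated mouse 3 (0.0506).

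Usp18 and Usp26 rose. Usp18, the protease of ISG15 and a gene induced by interferon, had values of 5.44 and 5.58 in control and 6.36, 6.45 and 6.01 in treated mice. The groups were apart at a low signal (0.77 ± 0.20; adjusted p = 0.00423). ISG15 conjugation has its own E2, Ube2l6, at 0.40 (adjusted p = 0.197), and its own E1, Uba7, at 0.74 (adjusted p = 0.0631), neither of which passed. Usp26, an X-linked gene expressed in the testis, had values of 8.05 and 8.17 in control and 8.63, 8.78 and 8.88 in treated mice. It was 1.58-fold higher without overlap (0.66 ± 0.15; adjusted p = 0.00174). Its autosomal relative Usp37 gave 0.00 at its brightest probe and -0.79 at another (adjusted p = 8.86e-04).

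Usp2, Usp9x and Usp14 are known for roles in male fertility or in early germ cells. Usp2, the brightest Usp probe, had values of 12.93 and 12.79 in control and 12.76, 12.62 and 12.59 in treated mice. The groups did not overlap, yet the change was small and did not pass (-0.20 ± 0.12; adjusted p = 0.161). Of its 4 probes the dimmest fell (-0.81 ± 0.17; adjusted p = 8.88e-04). Proteasome-bound Usp14 gave 0.07 (adjusted p = 0.793). Usp9x, at 6.53 and 6.05 in control and 6.27, 6.29 and 6.22 in treated mice, gave -0.03 (adjusted p = 0.906), and Y-linked Usp9y gave 0.11 (adjusted p = 0.599). The 21 Usp genes that did not pass lay between -0.56 (Usp25) and 0.36 (Usp12). Usp9x and Usp9y are alike in sequence, and whether each probe reads 1 of them only was not tested.

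Not every passing Usp gene had a matched sequence. The upstream sequences of those that did and held a searched motif are shown, namely those of Usp16 (chr16:87454735-87454984, plus strand), Usp26 (chrX:51801234-51801483, minus strand) and Usp30 (chr5:114100083-114100332, plus strand). They are 250 bases each from RefSeq (GRCm38.p6), printed in the direction of the gene with the matches in capitals. Usp16 holds an E-box and an ETS motif, Usp26 an NF-Y motif, and Usp30 an ETS motif on the opposite strand.
Usp16: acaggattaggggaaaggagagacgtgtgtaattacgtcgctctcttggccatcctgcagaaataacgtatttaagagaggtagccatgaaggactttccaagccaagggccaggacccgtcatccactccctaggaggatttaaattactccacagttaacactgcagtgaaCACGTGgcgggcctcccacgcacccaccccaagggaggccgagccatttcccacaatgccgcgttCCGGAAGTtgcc
Usp26: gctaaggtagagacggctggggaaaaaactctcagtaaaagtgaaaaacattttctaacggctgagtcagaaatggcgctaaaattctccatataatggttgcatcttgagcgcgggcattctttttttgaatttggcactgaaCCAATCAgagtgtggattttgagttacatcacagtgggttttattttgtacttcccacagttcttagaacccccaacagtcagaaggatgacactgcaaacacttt
Usp30: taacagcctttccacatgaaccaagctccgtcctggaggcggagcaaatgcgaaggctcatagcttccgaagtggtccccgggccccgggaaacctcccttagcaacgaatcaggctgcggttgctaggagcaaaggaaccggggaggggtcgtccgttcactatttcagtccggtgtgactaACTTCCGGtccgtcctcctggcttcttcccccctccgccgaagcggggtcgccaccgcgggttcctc
Over the 41 promoters of Usp genes, 9.76% held the E-box, 7.32% the ETS motif and 4.88% the NF-Y motif, beside 6.02%, 2.88% and 7.23% of all promoters. The CRE and the NRF1 motif were found in 0 Usp promoters, beside 1.55% and 0.782% of all. A match is a run of letters and not a site known to be bound.

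Where a gene had several probes, they did not always move alike. Of 34 members with more than 1 kept probe, all probes passed in the same direction in 2 Ube2 genes (Ube2l3 and Ube2u) and 6 Usp genes (Usp1, Usp8, Usp16, Usp22, Usp36 and Usp50). The dimmer probe of Usp36 was kept through the treated mice alone, so its shared direction is no further support. Some but not all probes passed in 5 Ube2 and 11 Usp genes, and none in 4 and 6. In 0 members did probes pass in opposite directions. Ube2q1, Usp3 and Usp4 did not pass at their brightest probe, but a dimmer probe did, at -0.46, 0.55 and -0.44. Counted by probe, 7 of 43 Ube2 probes were higher and 9 lower, and 10 of 76 Usp probes were higher and 24 lower, beside 21.9% and 22.8% of all probes. Past 2-fold there were 2 Usp probes higher, both of Usp22, and 2 lower, of Usp46os2 and Usp1, beside 7.04% and 3.16% of all probes. Probes of a gene can read different transcript ends, which the files do not state.

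**Figure D3:**
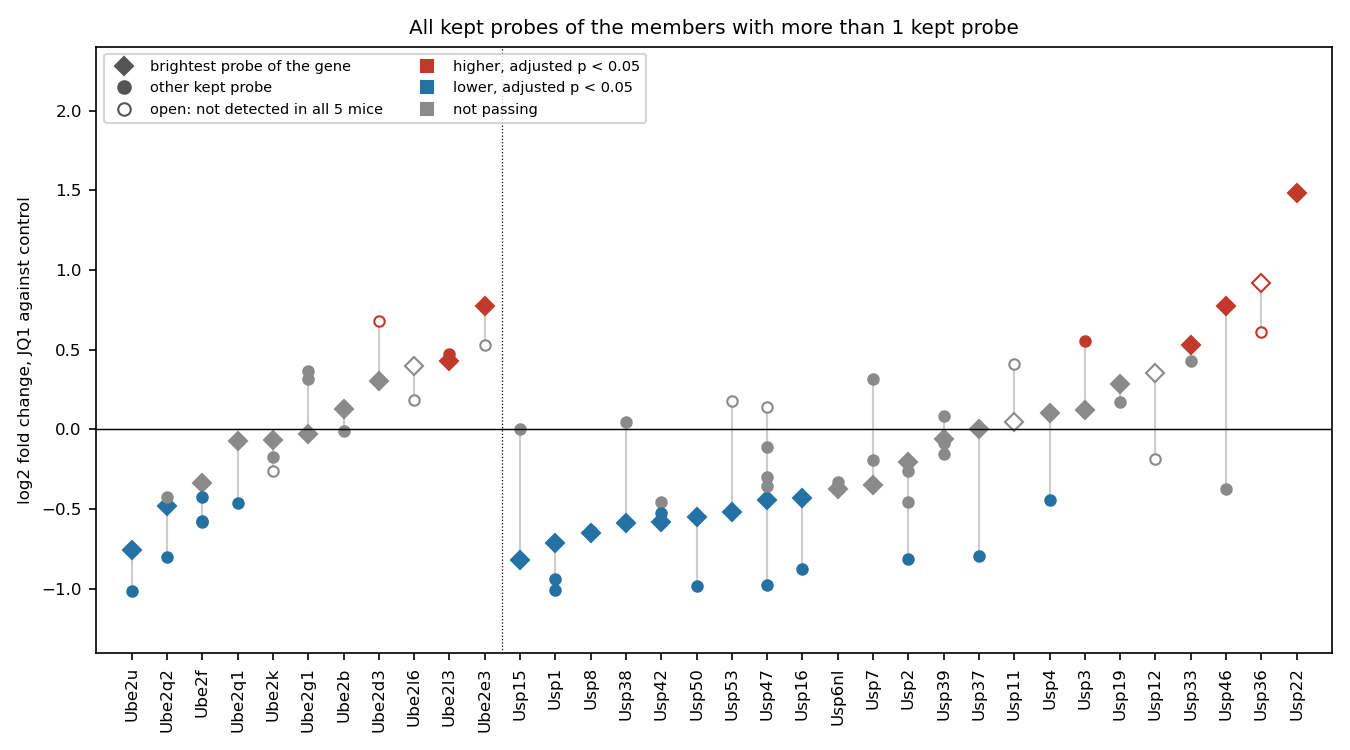
Log2 fold change of every kept probe of the 34 members with more than 1 kept probe, Ube2 genes left of the dotted line and Usp genes right of it. Diamonds are the brightest probe of a gene and open symbols were not detected in all 5 mice. The probes of Usp22 lie together at 1.49, those of Usp46 at 0.78 and -0.38, and those of Usp37 at 0.00 and -0.79.

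Among the passing members, the treated mice were not alike in the size of the changes. How the smallest change falls over all passing genes was not counted, so this need not be particular to the members. Of the 17 members that fell, JQ1-treated mouse 1 had the smallest change in 14 and JQ1-treated mouse 3 in the other 3. Of the 12 that rose, the smallest change was in mouse 1 for 6 and in mice 2 and 3 for 3 each. In all, 12 of the 29 passing members passed without any 1 of the 5 mice, namely Ube2d2a, Ube2e3, Ube2u, Usp15, Usp18, Usp20, Usp22, Usp26, Usp42, Usp46, Usp46os2 and Usp49. Leaving out control mouse 1 cost the most calls, and over all genes too the fewest then passed. How many of all passing genes passed without any 1 mouse was not counted.

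Of 73 other measured genes of ubiquitin transfer and removal, 16 rose (21.9%) and 14 fell (19.2%), shares close to those of all genes (25.3% and 21.8%). Of 7 E1 enzymes, Nae1, which activates NEDD8, rose (0.35, adjusted p = 0.0246), while Atg7 (-0.62, adjusted p = 0.0123) and Mocs3, which activates Urm1, fell. Mocs3 was 2.05-fold lower, from 8.71 and 8.58 to 7.84, 7.55 and 7.44 (-1.03 ± 0.16; adjusted p = 7.72e-05). NEDD8 itself (0.42, adjusted p = 0.0166) and Sumo2 (0.35, adjusted p = 0.0376) rose among 6 ubiquitin-like genes, and Ubd fell at a low signal with overlapping groups (5.20 and 6.12 in control, 4.67, 5.30 and 4.60 in treated mice; -0.81, adjusted p = 0.0201). Of 7 E2 genes with other names, Atg10 and Uevld rose, Cdc34 fell and 4 did not pass.

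The remaining deubiquitinase families are small, and a difference between them, or from the 25.3% higher and 21.8% lower of all genes, was not tested. All 4 measured UCH enzymes passed. Uchl1 rose (0.94, adjusted p = 6.8e-05), and it is also 1 of the 6 measured spermatogonial markers, of which 4 rose. Uchl3 (-0.68, adjusted p = 0.00156), Uchl5 of the proteasome (-0.38, adjusted p = 0.0326) and Bap1, a histone H2A protease (-0.65, adjusted p = 0.00161), fell. Among 11 JAMM metalloproteases and their relatives, 3 rose and 0 fell, led by Mpnd, which was 2.31-fold higher, from 5.75 and 6.37 to 7.16, 7.15 and 7.50 (1.21 ± 0.20; adjusted p = 1.32e-04). Of 11 OTU enzymes 2 rose and 1 fell, of 3 MJD enzymes Atxn3 fell (-0.51, adjusted p = 0.00424), and of 10 SUMO and NEDD8 proteases 1 rose and 2 fell. Cyld, which has the Usp fold under another name, rose (0.58, adjusted p = 0.00475). Among known partners of the members, Rnf40, part of the ligase that ubiquitinates histone H2B with Ube2a or Ube2b, fell by 0.86 (adjusted p = 1.43e-04), while Huwe1, another ligase that works with them, rose by 0.94 (adjusted p = 0.00225). Gmps, a partner of Usp7, fell by 0.83 (adjusted p = 4.95e-04), and G3bp1, a partner of Usp10, rose by 0.86 (adjusted p = 6.97e-05).

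**Figure D4:**
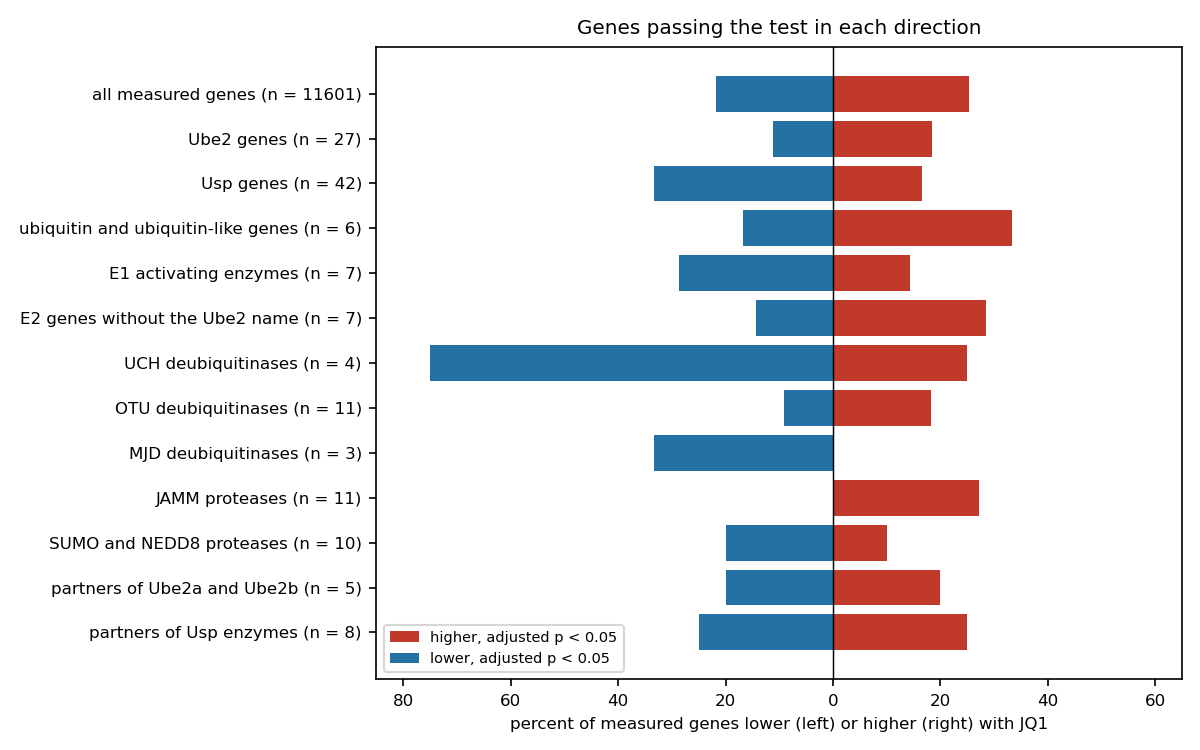
Percent of the measured genes of each list that passed the test lower (left, blue) or higher (right, red) in JQ1-treated testes, beside all 11601 measured genes. Of the Usp genes 33.3% are lower and 16.7% higher, of the Ube2 genes 11.1% and 18.5%, and of all genes 21.8% and 25.3%. The lists with few genes move in large steps.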

How the data were processed

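Testis RNA of 2 control mice and 3 JQ1-treated mice was profiled on 1-colour Illumina bead arrays of 45281 probes. The authors deposited the raw mean bead signal of each probe, an intensity on a linear scale, with a detection p-value per array. A second table of the deposited series holds their background-subtracted and normalized intensity (values under 1 set to 1 before log2), which served as an alternative. No source used here names the scanner software.

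The raw intensity was corrected with limma 3.58.1 (R 4.3.3; normexp with negative controls inferred from the detection p-values, offset 16), taken to log2 and quantile normalized. The 2 arrays of control mouse 1 were averaged and counted once. They differed with an SD of 0.266 over kept probes, against 0.32 between the 2 control mice. Median raw signals were 101.8 to 142.2, and 17799 to 20326 probes were detected per array. Of the probes, 20554 reached a detection p under 0.05 in 2 or more of the 5 mice and were kept. Models were fitted with lmFit and eBayes with an intensity trend, with Benjamini-Hochberg adjustment across these 20554 probes. All tests are two-sided. The number of arrays limits the precision, and for a single value an exact permutation test of 2 against 3 mice cannot go below 0.1. A SE is that of the fit. The fit was tested on simulated data.

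Gene names come from the platform annotation, updated through RefSeq gene IDs: 34885 probes have 1 symbol, 18 several and 10378 none. No per-sample column was left unassigned. The members, lists and tests were chosen with earlier results of these data known. By rule, the text names members past 2-fold, the 6 largest passing changes in each direction and class, the 2 brightest of each class and a fixed set with known roles. The other passing members, Ube2f, Ube2l6, Usp25, Usp37 and other relatives, and the list genes were named after their values were seen. Alternatives were 18 in number, over background, normalization, filter, technical pair, test, probe rule, replicate block, leaving out a mouse, and leaving out names that are no enzyme of the class, the latter chosen after seeing the data.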

Additional observations from a re-analysis of the deposited data

How the results depend on the processing

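The counts of members that rose or fell stayed within 1.5 times the reported ones under most alternatives. The study's methods name a marker selection module with Q-values, for which a two-sided test with unequal variances (the methods' t-test) stands in here, on the values normalized here and with Benjamini-Hochberg adjustment, so that its counts are not those of the module. It gave 0 in every class and direction (smallest adjusted p of a member 0.0897). At an unadjusted p under 0.05 it gave 23 members, 8 higher and 15 lower, 2 of them past 2-fold, and over all probes 1617 at that p and past 2-fold but 0 after adjustment. With cyclic loess, 1 Ube2 gene fell, and the medians were 0.15 for Ube2 and 0.012 for Usp genes. The Ube2 median was -0.03 with detection in all 5 mice, -0.044 with the second array of control mouse 1 alone and 0.058 as a median over probes. The Usp median was -0.16 with the authors' values, -0.20 with detection in all 5 mice, -0.035 with no filter and -0.16 as a median over probes. Without each JQ1-treated mouse in turn, 4 to 5 Ube2 genes rose and 1 to 3 fell (1 without JQ1-treated mouse 2). Of the Usp genes, 5 to 7 rose and 10 to 15 fell. Over all 11601 genes, 2497 to 2978 then rose and 1995 to 2630 fell. Without each of the 5 mice in turn, the medians lay at 0.03 to 0.087 (Ube2) and -0.215 to -0.032 (Usp). Without control mouse 1, fewer members passed, and fewer of all genes did too. A lone control is then assumed to vary like the other mice. Calls over all genes moved too, from 2938 higher and 2526 lower to 3275 and 1939 with cyclic loess. Without JQ1-treated mouse 2 they were 2515 and 1995.

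The groups share replicate numbers 1 and 2, which the labels do not tie to a litter or batch. Deviations of same-numbered mice correlated at 0.148 and 0.0224. With a replicate block, 5 Ube2 genes rose and 4 fell, and 5 Usp genes rose and 13 fell. Of all 11601 genes, 2769 then rose and 2329 fell. The medians were 0.087 for Ube2 genes, -0.032 for Usp genes and 0.008 for all genes.

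Of the values of single named members under an alternative, 547 kept their direction and side of the threshold, 51 no longer passed, 3 came to pass and 8 changed sign. None of the latter passed. They were Ube2k with cyclic loess (0.018), without control mouse 1 (0.076) and without JQ1-treated mouse 2 (0.03), Ube2n with the second array of control mouse 1 alone (-0.045), Usp14 without control mouse 2 (-0.114), and Usp9x with cyclic loess (0.008), with the first array alone (0.049) and without control mouse 1 (0.208). Over the mice left out in turn, these ranged from -0.209 to 0.076 (Ube2k), -0.114 to 0.257 (Usp14) and -0.271 to 0.208 (Usp9x). Ube2g2 and Ube2q2 did not pass with cyclic loess (adjusted p = 0.0681 and 0.066), nor Ube2h with no filter (0.0879) or the first array alone (0.102), Usp33 with the replicate block (0.0902), and Usp46 and Ube2q2 as a median over probes (0.238 and 0.0949). The 3 that came to pass were Ube2v1 without control mouse 2 and Usp7 without control mouse 2 and without JQ1-treated mouse 1. Without background correction, the changes of Usp46os2, Usp36, Usp18, Usp15 and Ube2h shrank to -0.808, 0.364, 0.316, -0.474 and 0.235 and still passed, and with the authors' values Usp36 gave 1.634. Signal near background limits Usp36, Usp18, Ube2a and Usp12.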
